A study of Mus musculus with 11 samples.

Results

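The E2F family of transcription factors and the pocket proteins that bind them were followed through the spermatogonial and early meiotic stages of the adult mouse testis. The members are the genes E2f1 to E2f8, Rb1 and Rbl1. With earlier results of these data known, these genes were chosen by symbol without use of their values. They are 10 of the 20389 rows of the table of unique molecular identifiers (UMIs, random tags that mark single RNA molecules), and all 10 passed the filter on low counts.

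E2F factors bind a short GC-rich motif in the promoters of genes needed for DNA replication and division, mostly as a dimer with a DP partner. In resting cells the pocket proteins Rb1 and its relatives mask or repress E2F-bound promoters. Cyclin-dependent kinases phosphorylate the pocket proteins in late G1 phase, E2F factors are released, and the S phase genes are transcribed. By common classification E2f1, E2f2 and E2f3 are activators, E2f4, E2f5 and E2f6 repressors, and E2f7 and E2f8 atypical repressors that act without a DP partner. Male germ cells pass through mitotic divisions as spermatogonia and through a last S phase as preleptotene cells. A long prophase follows, in which chromosomes break, pair and recombine without replication.

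The study profiled single live cells carrying green fluorescent protein from a Dazl-GFP reporter, a transgene driven by a germ cell gene, sorted from adult testis by SORT-Seq, which counts the 3' ends of polyadenylated RNA. Each of the 3 mice was an untreated reporter animal, so the groups compared are developmental stages, each drawn from the same 3 replicate animals. From mouse 1 came 8 libraries of 96 wells made with CEL-Seq1. CEL-Seq2 served for mouse 2, with 1 library of 384 wells, and for mouse 3, with 2 such libraries. In mouse 3, 1 library was sorted by a gate alone, and index sorting, which records each cell's fluorescence, was used for the rest. The library protocol therefore goes with the mouse, and an effect of the protocol and a difference between mice cannot be told apart.

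Of 1920 wells, 1448 held at least 1000 UMIs, and 1223 of those cells fell into 12 stages, with 475, 290 and 458 cells in mice 1, 2 and 3. Stages were clusters built from genes of odd-numbered autosomes without any member or any gene of the lists below, and ordered by diffusion pseudotime from the cluster richest in markers of undifferentiated spermatogonia. By marker genes stage 1 was undifferentiated spermatogonia-like, stages 2 and 3 differentiating spermatogonia-like, stage 4 preleptotene-like, stages 7, 8 and 9 leptotene and zygotene-like and stages 10, 11 and 12 pachytene-like. The summed level of the 4 preleptotene markers in the table was 640 CPM (UMIs per 1000000 UMIs of nuclear genes) in stage 4. Stage 5 had 2610 CPM and stage 6 had 1059 CPM, which places the preleptotene-like stage before the peak of these markers. The 8 markers of differentiating spermatogonia summed to 1131 CPM at stage 3 and still to 759 CPM at stage 4. The 9 pachytene markers summed to 2362 CPM at stage 8, 5315 CPM at stage 9 and 9473 CPM at stage 10. The 8 leptotene and zygotene markers summed to 6927, 5571 and 3823 CPM at these stages. By both sums stage 9 lies between its neighbours, so its class name is less certain. Stages 5 and 6 kept no name. Stage 5 was led by Stra8, which starts the meiotic programme, and by Clu, and the leading genes of stage 6 included the recombination genes Prdm9 and Dmc1. UMIs were summed per mouse and stage, in 36 sums of 14 to 62 cells and 119423 to 4602965 UMIs. Levels are in CPM, as mean ± SD over mice unless given per mouse. Log2 changes of the main fit use TMM factors, which rescale the sums, and need not equal the ratio of the CPM levels. The median UMI count per cell was lowest at stage 7, with 5456, and highest at stage 12, with 78605.5. The same CPM therefore stands for more molecules per cell late in the order.

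RefSeq promoters of assembly GRCm38.p6, which span 250 bases before to 50 bases after a gene's start, were present for 7 of the 10 members. The E2F motif, searched on both strands as TTTCCCGC, TTTCGCGC, TTTGCCGC or TTTGGCGC, was found in 4 of those 7 genes (E2f2, E2f3, E2f7 and Rbl1). Among all genes with promoters of that length it was found in 2.60% of 27025, and by promoter in 2.26% of 32851. E2f2 and E2f3 each had a further promoter without a match (chr4:136180532-136180831 and chr13:29984342-29984641). The window of E2f1 (chr2:154569377-154569676), without a match, lies inside the gene and downstream of its GENCODE start. The bases before that start were not searched. The 4 matched stretches are shown so that the members that carry the letters of their own family's motif can be set against their courses. Of these, E2f2, E2f7 and Rbl1 rose in differentiating spermatogonia-like cells and E2f3 did not pass the test there, where 17.1% of all genes were called higher. E2f8, whose promoter held no match, rose there too, as did E2f4 and E2f5, which were not searched. Sequences run 5' to 3' along the gene's strand, and capitals mark the match. In E2f3 and E2f7 the match is on the opposite strand and reads as the reverse complement of TTTCCCGC. A match is only a string of letters, and no binding was measured.
E2f2 chr4:136172294-136172323, plus strand, match 40 bases after the RefSeq start, which lies upstream of the GENCODE start given with the gene: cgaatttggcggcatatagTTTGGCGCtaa
E2f3 chr13:29986064-29986313, minus strand, match 11 bases before the start: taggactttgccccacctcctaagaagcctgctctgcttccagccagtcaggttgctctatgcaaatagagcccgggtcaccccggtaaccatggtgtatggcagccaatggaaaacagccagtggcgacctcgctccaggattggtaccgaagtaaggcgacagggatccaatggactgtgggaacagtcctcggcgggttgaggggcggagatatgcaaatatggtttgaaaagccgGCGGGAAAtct
E2f7 chr10:110745189-110745438, plus strand, match 198 bases before the start: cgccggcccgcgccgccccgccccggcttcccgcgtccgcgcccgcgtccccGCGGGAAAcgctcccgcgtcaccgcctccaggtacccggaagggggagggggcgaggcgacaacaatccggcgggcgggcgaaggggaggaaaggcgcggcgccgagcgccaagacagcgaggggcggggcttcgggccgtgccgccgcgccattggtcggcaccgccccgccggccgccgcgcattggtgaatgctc
Rbl1 chr2:157204535-157204784, minus strand, match 18 bases before the start: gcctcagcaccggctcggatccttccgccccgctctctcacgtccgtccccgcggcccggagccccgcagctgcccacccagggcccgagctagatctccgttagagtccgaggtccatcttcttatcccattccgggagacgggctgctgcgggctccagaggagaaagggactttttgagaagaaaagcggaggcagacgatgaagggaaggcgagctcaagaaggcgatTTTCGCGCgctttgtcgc

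All 10 members varied over the 12 stages by the quasi-likelihood F test of edgeR (Benjamini-Hochberg adjusted p under 0.05), as did 95.8% of the 10876 genes tested. Between the earliest and the latest stage 4 members rose and 5 fell. Over all genes 75.2% were called in that comparison, 37.2% higher and 38.1% lower, so the members' share of calls is near that of other genes. Their median log2 change was -1.31, against -0.02 over all genes tested. The members did not move together. E2f1, E2f3, E2f5, E2f6 and Rb1 ended below their stage 1 level, while E2f4, E2f7, E2f8 and Rbl1 ended above it, and E2f2 was low at both ends.

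**Figure D1:**
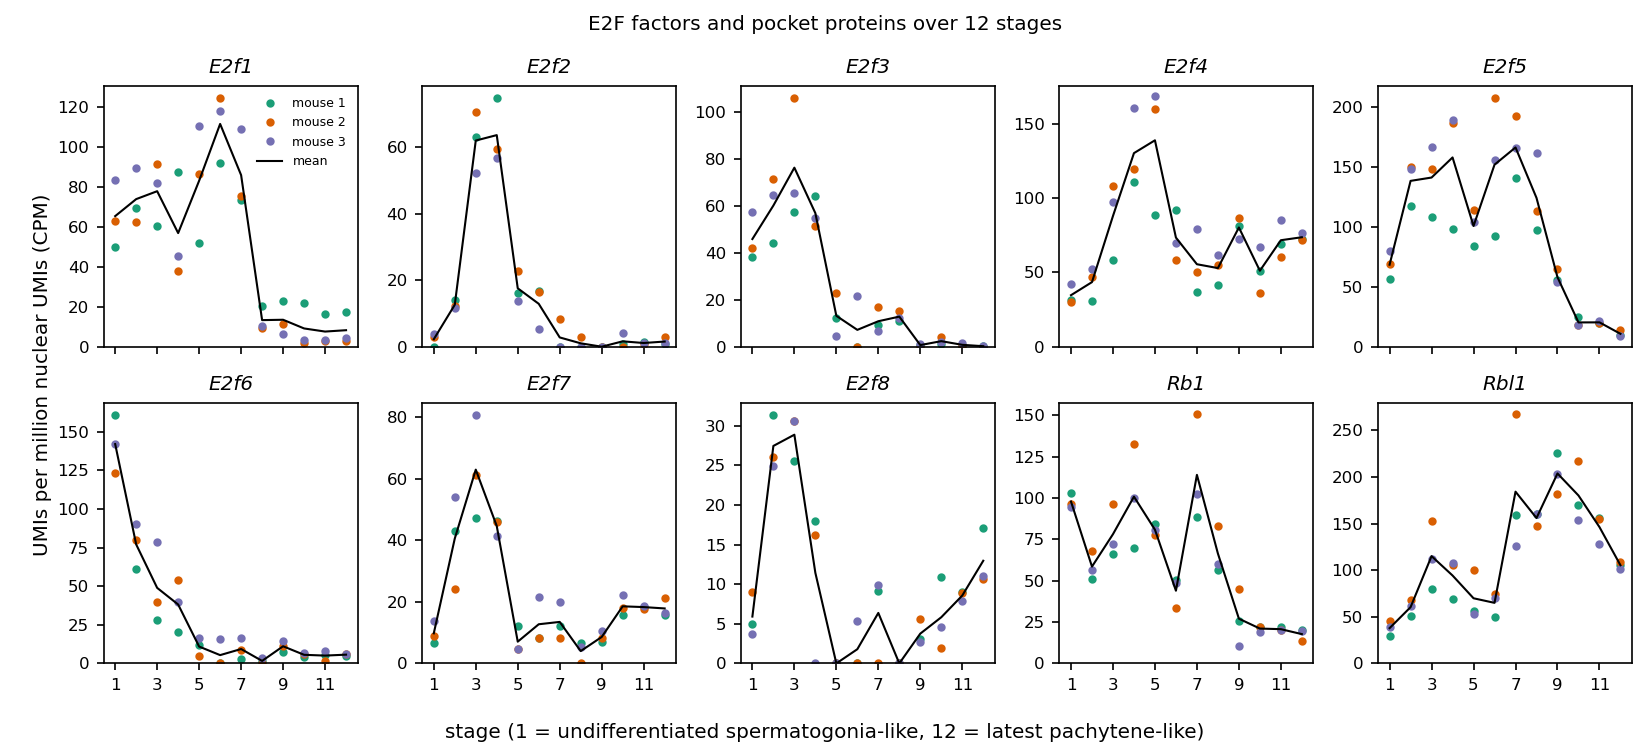
CPM of each of the 10 members at stages 1 to 12, one panel per gene with its own axis starting at 0; points are the 3 mice and the line joins their means. E2f1 is highest at stage 6 and low from stage 8, E2f2 peaks at stages 3 and 4, and E2f6 is highest at stage 1. Rbl1 has its highest means at stages 7 to 10 and is lower by stage 12.

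Summed over E2f1, E2f2 and E2f3, activator UMIs were 87.9, 108 and 145 CPM in mice 1, 2 and 3 at stage 1 and 181, 268 and 199.6 CPM at stage 3. The sum was 99.7 ± 16.6 CPM at stage 7, 27.2 ± 4.07 CPM at stage 8 and 10.04 ± 7.09 CPM at stage 12. Every mouse was lower at stage 8 than at stage 7. The repressor sum of E2f4, E2f5 and E2f6 was 245 ± 21.1 CPM at stage 1, 326 ± 85.2 CPM at stage 4 and 90.1 ± 2.33 CPM at stage 12. The atypical sum of E2f7 and E2f8 was 15.7 ± 3.56 CPM at stage 1, 91.9 ± 19.3 CPM at stage 3, 4.01 ± 3.55 CPM at stage 8 and 30.8 ± 2.84 CPM at stage 12. The pocket proteins Rb1 and Rbl1 together gave 136 ± 4.80 CPM at stage 1, 298 ± 105 CPM at stage 7 and 123 ± 2.97 CPM at stage 12. These sums are descriptions and were not tested.

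**Figure D2:**
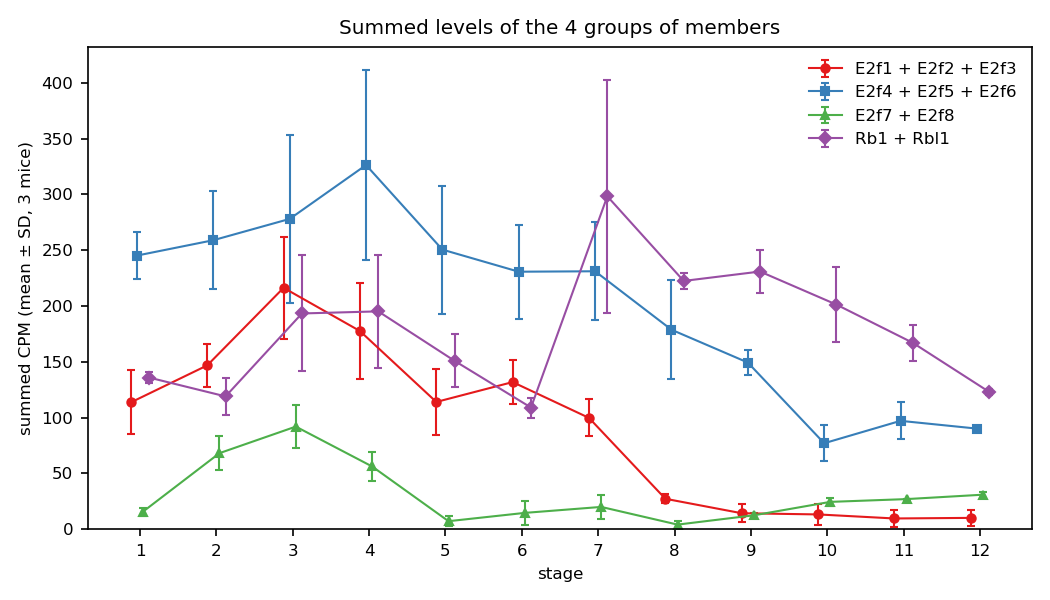
Summed CPM of activator E2Fs (E2f1 to E2f3), repressor E2Fs (E2f4 to E2f6), atypical E2Fs (E2f7, E2f8) and pocket proteins (Rb1, Rbl1) at stages 1 to 12. Points are means over the mice, bars their SD, and lines join the means. The activator sum is low from stage 8 on, and the pocket protein sum is highest at stage 7.

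E2f1 (chr2:154559407-154569892, minus strand, GRCm38) is the best known activator and drives S phase entry. Its level was 49.7, 63.1 and 83.5 CPM in mice 1, 2 and 3 at stage 1, 92.1, 125 and 118 CPM at stage 6 and 73.5, 75.3 and 109 CPM at stage 7. At stage 8 it was 20.2, 9.21 and 10.6 CPM. The lowest value of stages 1 to 7 was 37.9 CPM and the highest of stages 8 to 12 was 22.7 CPM, so the levels before and after this step do not overlap in any mouse. The fall from stage 7 to stage 8 was the one change between neighbouring stages called for E2f1, with a log2 change of -2.45 ± 0.55 (SE) and an edgeR adjusted p of 0.00121. At that step 18.3% of all genes were called, 12.2% higher and 6.08% lower. The UMIs behind it were 66 at stage 7 and 24 at stage 8.

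Stage 7 cells had the fewest UMIs per cell. With cells above 5000 UMIs thinned to that number, the fall was of similar size (-2.57, edgeR adjusted p = 3.00e-04). Cells with fewer UMIs were left as they were, so depth was not made equal between the stages. Per ERCC spike-in UMI, a scale that follows RNA per cell, the change was -1.95 (adjusted p = 0.00607). Late levels differed between mice, with 17.3 CPM at stage 12 in mouse 1, 2.91 in mouse 2 and 4.56 in mouse 3. In wells below 1000 UMIs E2f1 had 17 of 89078 UMIs in mouse 1. Mice 2 and 3 had 0 of 31359 and 0 of 59048. Whether these wells hold free RNA, and its part in the late level, was not tested. From stage 1 to stage 12 the log2 change was -2.59 ± 0.41 (adjusted p = 4.31e-07, lower in 3 of 3 mice). Ordered by level, stage 6 stood above stage 7 beyond the spread of the within-mouse differences. Stages 7, 5, 3, 2, 1 and 4 did not differ from their neighbours in that order, and stages 9, 8, 10, 12 and 11 stood below all of these and did not differ among neighbours. Among genes that are no members, those with the most similar course over the 36 sums were Taf1 (r = 0.94) and Brip1 (r = 0.93), with r the Pearson correlation of log2(CPM + 1) centred within mouse.

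E2f2 (chr4:136172394-136196057, plus strand) is an activator close to E2f1 in sequence. It was nearly absent at stage 1, with 4 UMIs in all, and stood at 63.2, 70.5 and 52.4 CPM in mice 1, 2 and 3 at stage 3 and 74.7, 59.6 and 56.7 CPM at stage 4. At stage 5 the 3 mice had 16.05, 22.8 and 13.8 CPM. The stages 3 and 4 thus stand above every other stage in each mouse. The step from stage 2 to stage 3 was 2.28 ± 0.40 on the log2 scale (edgeR adjusted p = 7.45e-05) but 2.31 with an adjusted p of 0.055 without the mouse as a block. The fall at stage 5 was -1.88 ± 0.51 (adjusted p = 0.00546). Without mouse 3 it was -1.74 with an adjusted p of 0.0514, and without the block -1.87 with 0.0832. The rise at stage 2 (2.45 ± 0.73, adjusted p = 0.0109) lost its call without mouse 1 (1.66, adjusted p = 0.137) and without the block (adjusted p = 0.0723).

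Over the pooled classes, E2f2 UMIs numbered 81 in preleptotene-like and 2 in leptotene and zygotene-like cells, a ratio of levels of 0.00659 (exact 95% interval 0.000785 to 0.0246). At stage 9 no E2f2 UMI was counted among 2434135, which allows a level of up to 1.23 CPM by counting error alone. Few UMIs reappeared in pachytene-like cells, where stage 10 was at least 1.67-fold above stage 9, a change that missed the threshold (edgeR adjusted p = 0.0545, higher in 2 of 3 mice). Between stage 1 and stage 12, both near 0, the log2 change of -0.62 ± 0.96 missed the threshold (adjusted p = 0.569), and its sign turned without mouse 3 (0.20). In the order of levels stages 4 and 3 did not differ, both stood above stages 5, 6 and 2, and these above the rest. The most similar courses were those of Dnajc9 (r = 0.85) and Mrpl18 (r = 0.85).

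E2f3 (chr13:29906575-29986063, minus strand) encodes the third activator, needed in many cells for the start of replication. Its level in mice 1, 2 and 3 was 38.1, 42.1 and 57.3 CPM at stage 1, 64.4, 51.5 and 54.8 CPM at stage 4 and 12.04, 22.8 and 4.61 CPM at stage 5. All 3 mice fell at stage 5 and no value overlapped between stages 4 and 5. The log2 change there was -2.31 ± 0.50 (edgeR adjusted p = 5.05e-04), on 73 and 10 UMIs. It remained called without each mouse and without the block. A further fall followed at stage 9, where 2 UMIs were left of 20 at stage 8 (0.0672 (exact 95% interval 0.00762 to 0.277) as a ratio of levels). From 83 UMIs at stage 1 the gene came to 3 at stage 12, a ratio of 0.00620 (exact 95% interval 0.00125 to 0.0188). With cells thinned to 5000 UMIs, the fall at stage 9 missed the threshold (-3.80, edgeR adjusted p = 0.0789). E2f3 thus left in a pair of steps, at stages 5 and 9, while E2f1 fell at stage 8. Stages 3, 2, 4 and 1 did not differ in the order of levels, stood above stages 5, 8, 7, 6 and 10, and these above stages 11, 9 and 12. Zfp566 (r = 0.96) and Cdyl (r = 0.94) had the most similar course.

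Several members fell at stage 5, where markers of Sertoli cells, the somatic cells that enclose germ cells, were highest. The summed level of the 6 Sertoli markers was 599 CPM there (range 283 to 879 over mice), 256 at stage 4 (175 to 367) and 290.1 at stage 6 (237 to 332). Clu was at 285, 109.6 and 415 CPM and Cldn11 at 56.2, 41.1 and 94.6 CPM in mice 1, 2 and 3 at stage 5. Sox9 and Wt1 had 16 UMIs each there and Amh 0. Clu, Cldn11 and Sox9 had their highest mean at stage 5, and Ctsl and Wt1 did not. Ctsl was at 234 ± 103 CPM at stage 5, 345 ± 69.1 CPM at stage 7 and 378 ± 90.1 CPM at stage 8. Wt1 was at 26.7 CPM at stage 1 and 15.3 CPM at stage 5. At stage 6 Clu was 47.1 ± 27.1 CPM and Cldn11 7.38 ± 8.55 CPM. E2f2, E2f3, E2f6, E2f7 and E2f8 were still low there, at 12.9, 7.17, 5.38, 12.7 and 1.79 CPM. E2f5, which also fell at stage 5, was at 84.2, 114 and 103.8 CPM in mice 1, 2 and 3 there and at 92.1, 208 and 156 CPM at stage 6. It was higher at stage 6 in 3 of 3 mice, and the log2 change of 0.56 ± 0.24 missed the threshold (edgeR adjusted p = 0.155). The part of Sertoli RNA in the stage 5 levels was not tested. In such sums, fewer cells that carry a transcript and less transcript per cell cannot be told apart.

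E2f4 (chr8:105297663-105305370, plus strand), a repressor that works with pocket proteins in resting and differentiating cells, was higher at the end of the order than at stage 1. Its level in mice 1, 2 and 3 was 31.5, 30.1 and 42.4 CPM at stage 1, 58.5, 108 and 97.1 CPM at stage 3 and 111, 119 and 161 CPM at stage 4. At stage 12 it was 72.5, 71.7 and 76.7 CPM. Every mouse stood above its own stage 1 level at both later points and the ranges do not overlap with stage 1. From stage 2 to stage 3 the level rose (1.03 ± 0.19, edgeR adjusted p = 1.40e-04), and from stage 1 to stage 12 by 1.45 ± 0.21 (adjusted p = 6.20e-08). The rise at stage 3 came to 0.24 with an adjusted p of 0.396 on the ERCC scale. Cells thinned to 5000 UMIs gave 1.14 for the latest against the earliest stage (adjusted p = 0.05002).

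In the order of levels stages 5 and 4 led without differing from each other. Stages 3, 9, 12, 6 and 11 followed, and stages 7, 8, 10, 2 and 1 closed it, with no difference between neighbours within either set. The 3 smaller changes of E2f4, lower at stage 6 (-0.98 ± 0.28, edgeR adjusted p = 0.0251), higher at stage 9 (0.66 ± 0.21, 0.0158) and lower at stage 10 (-0.49 ± 0.18, 0.0432), lost their calls when 1 mouse was left out. Without mouse 2 their adjusted p became 0.323, 0.0627 and 0.195. Stage 6 also lost its call without mouse 3 (-0.69, adjusted p = 0.385), and stages 9 and 10 without mouse 1 (0.42, 0.356, and -0.33, 0.43). Without the block the adjusted p was 0.05025, 0.116 and 0.255 at the 3 stages. Tinf2 and Laptm4b followed it most closely, with r = 0.76 and 0.76.

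E2f5 (chr3:14578641-14606309, plus strand), the other pocket-bound repressor, was high through most of the order. Mice 1, 2 and 3 had 56.4, 69.1 and 79.8 CPM at stage 1, 117, 149.6 and 148 CPM at stage 2 and 141, 192 and 166 CPM at stage 7. The rise at stage 2 was 1.04 ± 0.18 on the log2 scale (edgeR adjusted p = 2.40e-05), with every stage 2 value above every stage 1 value. After stage 8 the gene stepped down, to 55.3, 64.5 and 54.2 CPM at stage 9 (-1.08 ± 0.19, adjusted p = 2.34e-05). At stage 10 it was at 24.5, 17.9 and 18.4 CPM (-1.33 ± 0.20, adjusted p = 3.75e-06). Neither stage 9 nor stage 10 overlaps with the stage before it. On the ERCC scale the change at stage 9 was 0.19 (adjusted p = 0.484) and at stage 10 -0.39 (adjusted p = 0.169). Neither was called on that scale.

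Smaller falls of E2f5 at stage 5 (-0.63 ± 0.20, edgeR adjusted p = 0.0175) and stage 12 (-0.93 ± 0.21, 0.00261) lost their calls without mouse 3 (-0.45, 0.286, and -0.77, 0.164) and without the block (0.0536 and 0.177). That at stage 5 also lost it without mouse 2 (-0.57, 0.139). The whole change of E2f5 between stages 1 and 12 was -2.39 ± 0.22 (adjusted p = 1.07e-12, 3 of 3 mice). The order of levels ran through stages 7, 4, 6, 3, 2, 8 and 5 without a difference between neighbours, then stages 1 and 9, then 11 and 10, and last stage 12. Cycs, which encodes cytochrome c, and Ctnnbip1 were most alike in course, each with r = 0.96.

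E2f6 (chr12:16810963-16839742, plus strand) represses without pocket proteins, as part of a Polycomb complex that in somatic cells keeps germline genes off. It was the member with its highest level in undifferentiated spermatogonia-like cells in every mouse, with 161, 123 and 142 CPM in mice 1, 2 and 3 at stage 1. At stage 2 the values were 61.04, 80.004 and 90.2 CPM, at stage 4 20.6, 54.2 and 39.7 CPM and at stage 5 12.04, 4.57 and 16.2 CPM. Stages 1 and 2 do not overlap, nor do stages 4 and 5. Between stage 1 and stage 12 the log2 change was -4.32 ± 0.30 (edgeR adjusted p = 4.71e-16), from 142 ± 18.8 to 5.67 ± 0.715 CPM.

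The single steps of E2f6 were less certain than the whole fall. The step at stage 2 was -0.89 ± 0.24 (edgeR adjusted p = 0.00515). It came to -0.69 with an adjusted p of 0.054 without mouse 1, and -0.87 with 0.319 without the block. At stage 5 it was -1.68 ± 0.51 (0.0122), with 0.192 without mouse 2, 0.0574 without mouse 3 and 0.0614 without the block. A rise at stage 9 rested on 3 and 25 UMIs, a ratio of levels of 5.60 (exact 95% interval 1.71 to 28.98). The adjusted p of that rise was 0.0124, and 0.056 without mouse 3. By level stage 1 stood above stage 2, stage 2 above stages 3 and 4, and these above all later stages. Hes1 (r = 0.90), a Notch-regulated repressor, and Rftn1 (r = 0.89) had the most similar course.

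E2f7 (chr10:110745439-110787384, plus strand) and E2f8 (chr7:48866429-48881596, minus strand) repress E2F targets late in S phase and restrain E2F1. In mice 1, 2 and 3 E2f7 had 6.63, 9.02 and 13.7 CPM at stage 1. It had 43.2, 24.3 and 54.3 CPM at stage 2 and 47.2, 61.1 and 80.7 CPM at stage 3. E2f8 had 4.97, 9.02 and 3.74 CPM at stage 1, 31.3, 26.1 and 24.9 CPM at stage 2 and 25.5, 30.6 and 30.5 CPM at stage 3. For both genes every value at stages 2 and 3 lies above every value at stage 1. The rise at stage 2 was 2.13 ± 0.35 for E2f7 (edgeR adjusted p = 1.24e-05). For E2f8 it was 2.40 ± 0.53 (adjusted p = 8.07e-04), and 2.34 with an adjusted p of 0.0567 without the block.

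Both genes were low again at stage 5. E2f7 stood at 46.4, 46.1 and 41.6 CPM at stage 4 and 12.04, 4.57 and 4.61 CPM at stage 5, without overlap, a log2 change of -2.73 ± 0.50 (edgeR adjusted p = 6.95e-05). E2f8 had 13 UMIs at stage 4, none of them in mouse 3, and 0 among 901705 at stage 5. This is at least 3.04-fold lower against the 3 counts that a sum of 0 allows over the group. The call at stage 5 (adjusted p = 0.0123) was lost without mouse 1 (0.0989) and without mouse 2 (0.103). A fall of E2f8 at stage 8, from 6 UMIs to 0, at least 4.37-fold, and a rise at stage 9, to 8 UMIs and at least 1.79-fold, rest on these few UMIs. Their adjusted p of 0.019 and 0.0459 became 0.132 and 0.161 without mouse 1, and 0.138 and 0.106 without mouse 3. The rise also lost its call without mouse 2 (0.139).

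In pachytene-like cells the atypical pair returned. Pooled over class, E2f7 was at 7.53, 4.99 and 10.5 CPM in leptotene and zygotene-like cells of mice 1, 2 and 3 and at 16.3, 19.1 and 18.6 CPM in pachytene-like cells. E2f8 was at 2.93, 2.49 and 3.07 CPM and 13.4, 8.33 and 8.47 CPM. Each mouse was higher in the later class for both genes. The log2 change was 1.40 ± 0.27 for E2f7 (edgeR adjusted p = 2.38e-04) and 2.06 ± 0.49 for E2f8 (0.00133). These calls held without each mouse and without the block.

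Against stage 1, E2f7 at stage 12 was higher by 1.14 ± 0.37 (edgeR adjusted p = 0.00527), by 0.98 with an adjusted p of 0.0518 without mouse 1, and by 0.37 with an adjusted p of 0.441 without alignment of the mice. E2f8 was higher by 1.65 ± 0.55 (adjusted p = 0.00717). Its call was lost without mouse 1 (1.42, 0.0567), without mouse 3 (1.32, 0.0741) and without the block (1.55, 0.0778). In the order of levels stages 3, 4 and 2 led for E2f7 and stages 3 and 2 for E2f8, and among the stages that followed no neighbours in the order differed beyond the spread. The rise of E2f7 at stage 10 (1.22 ± 0.36, 0.0111) was not called without mouse 1 (1.19, 0.0988), without mouse 3 (1.18, 0.13) or without the block (0.1). E2f7 and E2f8 correlated with each other at r = 0.73 over the 36 sums, which share mice and depth. The closest other genes were Mpp7 (r = 0.74) and Samm50 (r = 0.73) for E2f7 and Rpusd3 (r = 0.78) and Uhrf1 (r = 0.76) for E2f8, Uhrf1 being a replication gene of the list below.

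**Figure D3:**
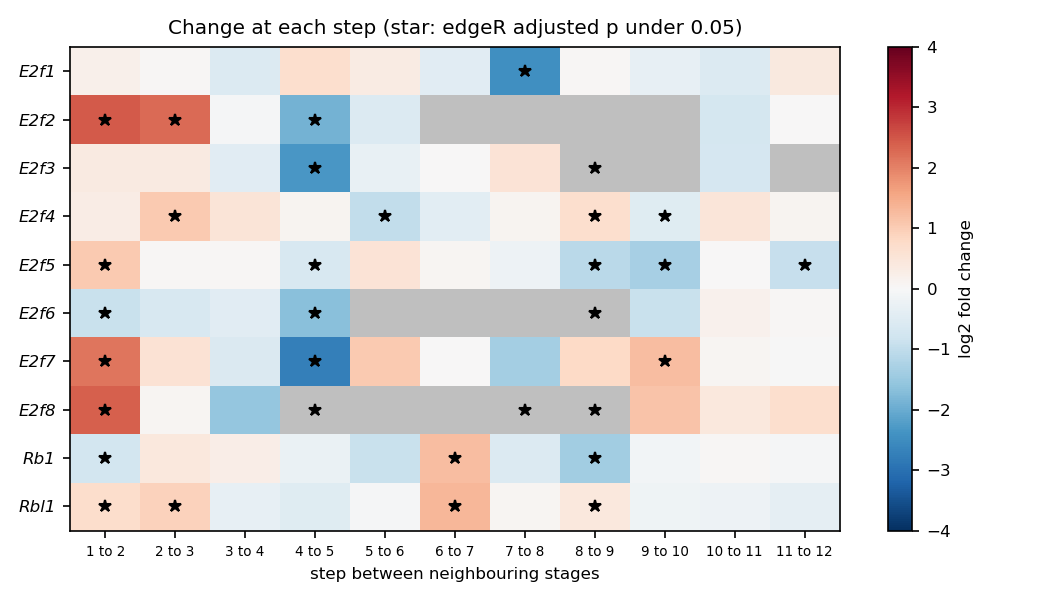
Log2 fold change of each member (rows) at each of the 11 steps to a stage from the one before (columns), on a colour scale centred at 0; starred cells are called at an edgeR adjusted p under 0.05 and grey cells have 3 or fewer UMIs on a side. Starred cells are mostly rises at stages 2 and 3 and all falls at stage 5, and E2f1 has a single star, at stage 8.

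Rb1 (chr14:73183673-73325822, minus strand) encodes the retinoblastoma protein, which holds activator E2Fs. Its level in mice 1, 2 and 3 was 103, 96.2 and 94.7 CPM at stage 1, 51.3, 67.8 and 56.5 CPM at stage 2 and 88.8, 151 and 103 CPM at stage 7. All 3 mice were lower at stage 2 than at stage 1 without overlap, with a log2 change of -0.74 ± 0.21 (edgeR adjusted p = 0.00657). That change was -0.56 with an adjusted p of 0.0917 without the gate-sorted library of mouse 3 and -0.72 with 0.112 without the block. Stage 8 stood at 56.6, 82.9 and 59.9 CPM and stage 9 at 25.7, 44.8 and 10.6 CPM, again without overlap (-1.38 ± 0.27, adjusted p = 1.15e-04). With cells thinned to 5000 UMIs that fall was -0.68 (adjusted p = 0.271), and on the ERCC scale -0.13 (0.733).

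Stage 7 was above stage 6 by 1.22 ± 0.36 for Rb1 (edgeR adjusted p = 0.0176), which lost its call without mouse 2 (0.92, 0.182) and without mouse 3 (1.37, 0.0774). From stage 1 to stage 12 the level fell from 97.9 ± 4.30 to 17.7 ± 3.62 CPM (-1.997 ± 0.21, adjusted p = 8.74e-11). By level, stage 7 led, stages 4 and 1 followed, then stages 5 and 3, then stage 8, and stages 2, 6, 9, 10, 11 and 12 closed the order without a difference between neighbours. Hook3 (r = 0.92) and Phf6 (r = 0.91) were most alike.

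Rbl1 (chr2:157145893-157204534, minus strand) encodes p107, a pocket protein that binds mainly repressor E2Fs and is itself an E2F target in cycling cells. Its mean level was at its highest at stages 7 to 10. Mice 1, 2 and 3 had 29.8, 45.1 and 38.6 CPM at stage 1, 80.2, 153 and 112 CPM at stage 3 and 50.2, 74.7 and 69.9 CPM at stage 6. At stage 7 they had 159, 268 and 126 CPM and at stage 9 226, 182 and 204 CPM. Stage 7 lies above stage 6 in every mouse without overlap, and stage 9 above every value of stages 1 to 6. The rise at stage 3 was 0.91 ± 0.17 (edgeR adjusted p = 2.16e-04) and that at stage 7 1.34 ± 0.28 (adjusted p = 7.97e-04). With cells thinned to 5000 UMIs the rise at stage 7 was 1.35 (adjusted p = 0.00831). On the ERCC scale the rise at stage 3 was 0.12 (adjusted p = 0.652).

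At stage 12 Rbl1 was at 106, 109 and 101 CPM, above stage 1 by 1.87 ± 0.20 (edgeR adjusted p = 5.53e-11). Neighbours in its order of levels did not differ beyond the spread until the last place, where stage 2 stood above stage 1. A rise at stage 2 (0.72 ± 0.22, 0.0117) lost its call without mouse 1 (0.61, 0.125) and without mouse 3 (0.75, 0.0805). One at stage 9 (0.42 ± 0.16, 0.044) lost it without any 1 of the mice (0.257, 0.0901 and 0.117) and without the block (0.209). Over the 36 sums Rbl1 and E2f1 correlated at r = -0.52, whereas Rb1 and E2f1 correlated at 0.76 and Rb1 and E2f5 at 0.80. Arl6ip1 (r = 0.90) and Efr3a (r = 0.89) had the courses most like that of Rbl1.

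Pooling the named stages into 5 classes gave more UMIs per comparison. From undifferentiated to differentiating spermatogonia-like cells 6 members rose and 2 fell, where 33.9% of 11300 genes were called, 17.1% higher and 16.8% lower. E2f2 rose most (3.75 ± 0.70, edgeR adjusted p = 4.44e-04), from 0, 3.01 and 3.74 CPM to 31.9, 36.98 and 25.3 CPM in mice 1, 2 and 3. E2f7 (2.35 ± 0.32), E2f8 (2.43 ± 0.54), Rbl1 (1.12 ± 0.19), E2f5 (1.05 ± 0.16) and E2f4 (0.76 ± 0.20) rose as well, with adjusted p from 2.60e-05 to 0.00674. E2f6 (-1.12 ± 0.23, 9.71e-04) and Rb1 (-0.57 ± 0.19, 0.0278) fell. E2f1 was at 65.5 ± 17.003 and 76.1 ± 10.4 CPM and E2f3 at 45.9 ± 10.1 and 66.7 ± 18.5 CPM, with adjusted p of 0.661 and 0.159. The E2f4 call was lost without mouse 2 (0.67, 0.0626), without mouse 3 (0.86, 0.0642) and without the gate-sorted library (0.0626). Rb1 lost its call without any 1 of mice 1, 2 and 3 (0.0715, 0.0645 and 0.174) and without the block (0.13), and E2f8 without the block (0.0513). Thinned cells ended the call of E2f5 (0.65, 0.126), and read counts that of E2f6 (-1.06, 0.0657).

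From differentiating spermatogonia-like to preleptotene-like cells E2f4 rose, from 40.9, 72.97 and 67.6 to 111, 119 and 161 CPM (1.09 ± 0.17, edgeR adjusted p = 2.58e-04). At this comparison 20.2% of genes were called, 8.96% higher and 11.2% lower. On the ERCC scale the E2f4 change was 0.19 (0.434). E2f6 (-0.87 ± 0.29, 0.0413) and E2f8 (-1.51 ± 0.50, 0.0412) fell, and neither was called without mouse 2 (0.0526 and 0.0993), without mouse 3 (0.301 and 0.324) or without the block (0.171 and 0.291). The 7 other members missed the threshold, with log2 changes from -0.52 in E2f1 to 0.96 in E2f2.

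From preleptotene-like to leptotene and zygotene-like cells 7 members fell and Rbl1 alone rose, where 55.2% of genes were called, 29.1% higher and 26.1% lower. The unnamed stages 5 and 6 lie between these classes and entered neither. Of the members that fell, E2f2, E2f3, E2f5, E2f6 and E2f7 were already called lower at stage 5 and E2f4 at stage 6. Rb1 was called at neither step. Rbl1 went from 69.6, 106 and 108 to 196, 181 and 174 CPM (1.20 ± 0.16, edgeR adjusted p = 4.74e-06). Besides E2f2, E2f3 (-2.94 ± 0.36), E2f7 (-2.24 ± 0.32) and E2f6 (-2.11 ± 0.39) fell most, and E2f4 by 0.72 ± 0.17. The falls of E2f5 (-0.44 ± 0.15, 0.0173) and Rb1 (-0.70 ± 0.21, 0.00869) were lost without mouse 2 (0.327 and 0.0512) and without mouse 3 (0.0887 and 0.0704), and that of E2f5 also without the block (0.0715). E2f1, which falls inside this class at stage 8, had a change of -0.93 ± 0.44 (0.0818), and E2f8 one of -1.63 ± 0.70 (0.0549). Without mouse 3 the E2f8 change was -2.50 with an adjusted p of 0.00597.

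From there to pachytene-like cells E2f7 and E2f8 rose and E2f1, E2f3, E2f5 and Rb1 fell, where 57.4% of genes were called, 32.4% higher and 25.0% lower. E2f5 went from 79.9, 103 and 113 to 16.6, 17.4 and 15.4 CPM (-2.32 ± 0.14, edgeR adjusted p = 1.78e-10). E2f3 (-2.49 ± 0.45) and Rb1 (-1.13 ± 0.18) were lower in 3 of 3 mice. E2f1 fell by 1.41 ± 0.39 (adjusted p = 0.0043), and by 0.94 with an adjusted p of 0.0955 without mouse 3 and by 1.39 with 0.0642 without the block. The direction depends on the scale. Relative to ERCC UMIs the change was 0.65 for E2f1, 0.96 for Rb1, -0.43 for E2f3 and -0.21 for E2f5. On that scale edgeR called 7 members higher and 0 lower, also 0 lower at an unadjusted p under 0.05. Of all 11300 genes 9716 were called higher and 378 lower there, with a median log2 change of 2.14, so most genes rose as well. Between stages 1 and 12 the median log2 change over all genes was 1.21 on the ERCC scale and -0.02 with TMM factors.

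**Figure D4:**
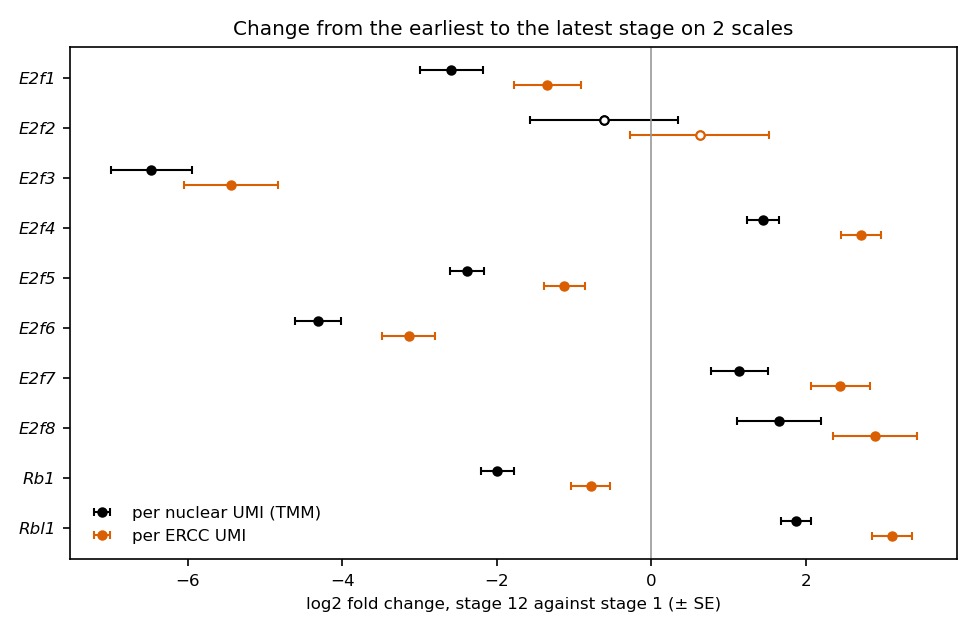
Log2 change of each member from stage 1 to stage 12, per nuclear UMI with TMM factors and relative to ERCC UMIs, with standard errors. Open circles did not pass the edgeR threshold. On the ERCC scale E2f1, E2f3, E2f5, E2f6 and Rb1 are still lower at stage 12, and E2f4, E2f7, E2f8 and Rbl1 higher.

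At neighbouring stages the counts of members called followed the same picture. At stage 2, 5 members rose and 2 fell, where 27.0% of genes were called, 13.5% higher and 13.5% lower. At stage 3, 3 rose, where 18.9% of genes were called (8.91% higher and 9.95% lower). At stage 5, 6 fell (27.1% called, 12.5% higher and 14.6% lower). E2f4 was the member called at stage 6, lower, where 7.27% of genes were called (2.58% higher and 4.69% lower). Rbl1 and Rb1 rose at stage 7 (14.1% called, 6.96% higher and 7.13% lower), and E2f1 and E2f8 fell at stage 8. At stage 9, 4 rose and 3 fell (31.0% called, 16.1% higher and 14.9% lower). At stage 10, 1 rose and 2 fell (24.3% called, 15.2% higher and 9.15% lower), and at stage 12 E2f5 fell (7.01% called, 5.03% higher and 1.98% lower). At stage 4, where 4.57% of genes were called (2.35% higher and 2.22% lower), edgeR called 0 members, with E2f4 higher and E2f7 and E2f8 lower at an unadjusted p under 0.05. At stage 11 (2.09% called, 1.32% higher and 0.763% lower) it called 0, with E2f4 higher at an unadjusted p under 0.05. DESeq2 called E2f8 lower at stage 4 (-1.59, adjusted p = 0.0391) and 0 members at stage 11. The calls that held without each of the mice were the rises of E2f5, E2f7 and E2f8 and the fall of Rb1 at stage 2, the rises of E2f2, E2f4 and Rbl1 at stage 3 and the falls of E2f3 and E2f7 at stage 5. To these add the rise of Rbl1 at stage 7, the fall of E2f1 at stage 8, the falls of E2f3, E2f5 and Rb1 at stage 9 and the fall of E2f5 at stage 10. Other settings ended some of these. On read counts E2f2 at stage 3 (adjusted p = 0.19), E2f4 at stage 3 (0.0825), E2f8 at stage 2 (0.0575) and Rb1 at stage 2 (0.201) missed the threshold. With thinned cells E2f5 missed it at stage 2 (0.63, 0.287) and stage 10 (-1.21, 0.0917), and Rb1 at stage 2 (-0.93, 0.111).

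Of the DP partners, Tfdp2 was at 82.4, 78.6 and 81.2 CPM in mice 1, 2 and 3 at stage 4, 245, 306 and 288 CPM at stage 5 and 234, 291 and 221 CPM at stage 6, above all its values at other stages, and ended at 16.5 ± 3.68 CPM. From stage 1 to stage 12 it fell (-2.28 ± 0.21, edgeR adjusted p = 1.41e-12). Tfdp1 was low, at 15.6 ± 10.9 CPM at stage 1 and 8.64 ± 1.62 at stage 12 (adjusted p = 0.36). Rbl2, the third pocket protein gene, did not pass the filter and had 5 UMIs at stage 1 and 24 at stage 12. Of 8 genes of the MuvB complex and its partners, which join pocket proteins or MYB factors at cell cycle promoters, 4 rose and 3 fell. Over all genes 37.2% were called higher and 38.1% lower from stage 1 to stage 12, so these counts are near the background. Mybl1, the MYB factor of meiotic prophase, was at 5.15, 8.13 and 7.56 CPM at stage 4 and 109, 116 and 53.8 CPM at stage 6, and from stage 1 to stage 12 rose (3.65 ± 0.42, 5.69e-10). Mybl2, its counterpart in cycling cells, fell from 75.9 ± 5.29 to 15.2 ± 5.36 CPM (-2.08 ± 0.27, 5.10e-09). Lin52 of the core rose (3.85) and Foxm1 fell (-2.78).

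**Figure D5:**
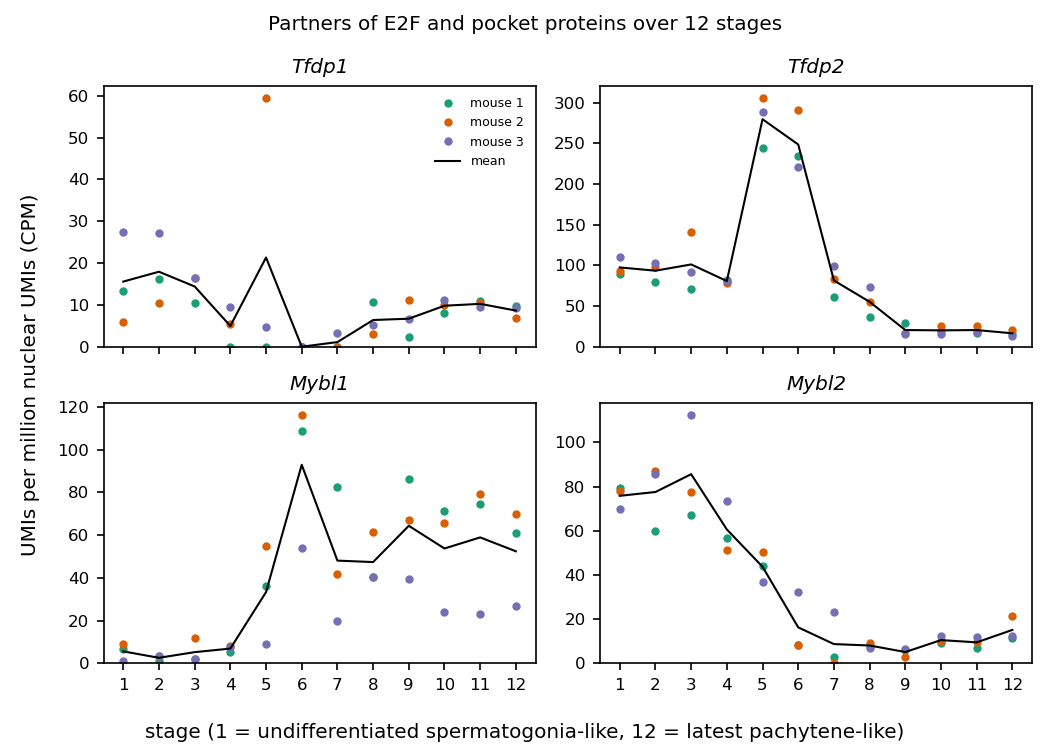
CPM of Tfdp1, Tfdp2, Mybl1 and Mybl2 at stages 1 to 12, points for the 3 mice and lines for their means. Tfdp2 is highest at stages 5 and 6, and Mybl1 is higher from stage 5 on while Mybl2 is lower.

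Of the E2F targets of DNA replication 26 of 31 rose from undifferentiated to differentiating spermatogonia-like cells and 1 fell, with a median log2 change of 0.80 against 0.05 over all genes, of which 17.1% were called higher and 16.8% lower. There 11 of 15 genes of G2 and M phase rose as well (median 0.87). At stage 5, 12 of the 15 G2 and M phase genes fell and 2 rose (median -1.89), while of the replication genes 6 rose and 4 fell, beside 12.5% higher and 14.6% lower over all genes. At stage 7, 10 replication genes fell, where 7.13% of all genes were called lower. At stage 8, 17 fell and 1 rose (median -1.07), where 6.08% of all genes were called lower and 12.2% higher. From stage 1 to stage 12, 19 of 31 replication genes fell and 6 rose (median -1.05). Of all genes 37.2% were called higher and 38.1% lower between these stages. Mcm2, a subunit of the replicative helicase, fell from 183 ± 29.2 to 3.47 ± 2.19 CPM (-5.28 ± 0.30, adjusted p = 1.28e-18) and Tk1, a nucleotide kinase of S phase, from 31.3 ± 10.5 to 0.291 ± 0.331 CPM (-5.60 ± 0.53, adjusted p = 2.77e-12). Chaf1a, which places histones on new DNA, rose from 30.4 ± 7.78 to 111 ± 20.3 CPM (2.25 ± 0.21, adjusted p = 1.83e-12) and Gins1, another helicase component, from 62.3 ± 25.3 to 167 ± 14.03 CPM (1.82 ± 0.20, adjusted p = 9.09e-11). Of the G2 and M phase genes 6 rose and 5 fell. Ccna2, cyclin A2, fell (-3.89), as did Aurkb (-3.69), while Aurka (2.17) and Ccnb2 (1.604), cyclin B2, rose.

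Upstream of the pocket proteins, 5 of 8 G1 cyclins and kinases fell and 2 rose from stage 1 to stage 12 (median -1.95). Between these stages 37.2% of all genes were called higher and 38.1% lower. Ccnd2, cyclin D2, fell from 360.1 ± 167 to 1.33 ± 1.77 CPM (-7.21 ± 0.41, adjusted p = 6.18e-18), and Ccnd3 fell by 4.65. Ccne2 (3.66) and Cdk2 (1.61) rose. Ccne2 differed widely between mice, with 6.91 ± 9.89 CPM at stage 1 and 76.6 ± 81.4 CPM at stage 12. Of the inhibitors of cyclin-dependent kinases 6 of 7 were tested, of which 4 fell and 2 rose. Cdkn1b, p27, fell from 74.2 ± 16.4 to 1.18 ± 1.69 CPM (-5.32 ± 0.47, adjusted p = 1.09e-12), and Cdkn1c (-3.66) fell. The INK4 inhibitors Cdkn2c, from 13.2 ± 4.27 to 134 ± 24.6 CPM (3.67 ± 0.27, adjusted p = 3.64e-15), and Cdkn2d (3.26) rose.

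Of the 12 genes of the Polycomb complex that holds E2f6, 5 rose and 6 fell (median -0.29). Mga, its DNA-binding scaffold, fell from 337 ± 60.6 to 64.5 ± 28.2 CPM (-2.11 ± 0.14, adjusted p = 6.54e-17), and Cbx3 (-1.84) fell too. Rnf2 (1.67) and Ring1 (2.20), its ubiquitin ligases, rose. Of 5 germline genes that E2f6 represses in somatic cells, 4 rose and 1 fell (median 1.46) between the same stages, where 37.2% of all genes were called higher and 38.1% lower. Stag3, a meiotic cohesin, rose from 235 ± 18.9 to 592 ± 54.7 CPM (1.69 ± 0.14, adjusted p = 1.50e-13). Slc25a31, a testis nucleotide carrier, fell from 528 ± 56.6 to 238 ± 16.2 CPM (-0.77 ± 0.14, adjusted p = 4.78e-06). Tuba3b (2.38) rose as well, but it has near-identical copies among which 3' reads may be split, so its value is uncertain.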

How the data were processed

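Per the labels, single cells of 3 mice were sequenced by SORT-Seq. The authors deposited UMI counts and read counts by gene and well. They also deposited transcripts as estimated counts, which are UMI counts corrected for tag collisions. Alignment used BWA 0.7.10 with mm10 per the submitters' processing notes, and the counting tool and annotation are not given in the sources used here. In mouse 1 the transcripts stand in another order of wells (2 of 768 at the same position) and were matched by profile (lowest correlation 0.973). The tables name wells by number and do not separate the libraries of mouse 1, so shared cell barcodes could not be counted.

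Wells with at least 1000 nuclear UMIs were kept with Python 3.11.15 and pandas 2.3.3 (545, 321 and 582 cells in mice 1, 2 and 3, with medians of 16275, 9830 and 14132.5 UMIs and mouse totals of 16682671, 5866174 and 18032562). Each well received 1 sorted cell, and no doublet caller was run. Staging used 1500 variable genes of the odd autosomes, Seurat 5.3.0 anchors over 15 dimensions and Leiden clusters (scanpy 1.11.5, resolution 1.0). A stage needed at least 10 cells in at least 2 mice and a median UMI count of at least 1/3 of that of all kept cells. Names are rebuilt from marker lists.

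UMI counts were summed per mouse and stage or class and tested with edgeR 4.0.16 in R 4.3.3 (quasi-likelihood, TMM, filterByExpr). Every stage comes from the same 3 animals, which pairs the sums, so the mouse was a block. Benjamini-Hochberg adjustment ran over 10876 genes for stages and 11300 for classes, and calls have an adjusted p under 0.05. The test was also run on simulated data, and no result of that run is given or relied on here. A difference between neighbours in an order of levels is beyond the spread where the mean within-mouse difference is larger than its SD over mice and all 3 mice differ in the same direction. Ratios with 1 to 3 UMIs carry exact 95% intervals, and these and the limits of a count of 0 cover counting error only.

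Alternatives were DESeq2 1.42.0, RLE factors, no filter or at least 5 CPM in at least 6 sums, no block, each mouse or the gate-sorted library left out, ERCC UMIs as library size, reads, rounded transcripts, cells thinned to 5000 UMIs, wells of at least 2000 UMIs, sums of at least 20 cells, no alignment and Leiden resolution 0.7. Thinning drew 5000 UMIs from each cell above that number and left the other cells unchanged. Neighbouring stages were compared after the levels had been seen. The members and lists were chosen with earlier results of these data known. All members are named. Of each list at most the 2 largest called rises and falls from stage 1 to stage 12 are named, with Tfdp1, Tfdp2, Rbl2, Mybl1 and Mybl2 always, and for each member the 2 other genes of at least 10 CPM with the highest correlation. Gene positions follow the GENCODE annotation of GRCm38.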

Additional observations from a re-analysis of the deposited data

Results flagged for a closer look

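Of the kept cells, 225 belonged to no stage and entered no comparison, mostly because their clusters had few UMIs. Pooled over mice, each member was present in these cells above 3.16 CPM, the level that a count of 0 in their 949294 UMIs allows. This is what singled these values out. E2f1 was at 34.8 CPM, E2f2 at 13.7, E2f3 at 24.2, E2f4 at 58.99 and E2f5 at 52.7. E2f6 was at 26.3 CPM, E2f7 at 28.4, E2f8 at 6.32, Rb1 at 38.98 and Rbl1 at 125. The 6 UMIs of E2f8 all came from mouse 1, with 0 of 110368 in mouse 2 and 0 of 460624 in mouse 3. The cells come from several clusters, one of them elongating spermatid-like. By the marker lists a cluster of 84 cells was named preleptotene and one of 83 cells pachytene. Their median UMI counts of 2046.5 and 2162 were too low for a stage. The cells have no place in the order, so the levels above were compared with no stage.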

How the results depend on the processing

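Main values are in the report. Leaving out each mouse in turn, members called higher from stage 1 to 12 (4) numbered 2 to 4, those lower in differentiating spermatogonia (2) 1 to 1, and in preleptotene cells those higher (1) 1 to 2 and those lower (2) 0 to 3. With cells thinned to 5000 UMIs, 1 member was higher from stage 1 to 12, 3 higher (of 6) and 1 lower in differentiating spermatogonia, 0 lower in preleptotene and 1 higher (of 2) in pachytene cells. On the ERCC scale preleptotene counts were 0 higher and 7 lower, and pachytene counts 7 higher and 0 lower (of 4). Of all 11300 genes 75 were higher and 7429 lower in preleptotene, and 9716 higher and 378 lower in pachytene cells on that scale. Without alignment 2 rose from stage 1 to 12, 1 was lower in differentiating, and 2 higher and 5 lower in preleptotene cells. Differentiating spermatogonia had 0 lower on reads and in sums of at least 20 cells, and 1 without the gate-sorted library. Preleptotene cells had 2 higher under DESeq2, RLE factors or no filter, 4 at Leiden resolution 0.7, and 0 lower on reads and without the gate-sorted library. At an unadjusted p under 0.05 those counts of 0 by edgeR became 1 (E2f6) on reads and in sums of at least 20 cells for differentiating spermatogonia. For preleptotene they became 2 (E2f6, E2f8) on reads, without mouse 2 and without the gate-sorted library, and 1 (E2f6) without the block. They stayed 0 under thinning, without mouse 3 and on the ERCC scale.

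Stages come from the same mice, so the mouse was a block. Without it 1 member was lower in differentiating spermatogonia and 0 in preleptotene cells. Calls it ended are given beside each result, and it turned no direction.

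Directions turned on the ERCC scale for E2f2 from stage 1 to 12 (0.63), E2f1 in differentiating spermatogonia (-0.034), E2f5 (-0.78), Rb1 (-0.35) and Rbl1 (-0.71) in preleptotene, E2f1 (0.65), E2f6 (1.92), Rb1 (0.96) and Rbl1 (1.88) in pachytene cells, E2f5 at stage 9 (0.19) and E2f4 at stage 10 (0.42). Without alignment they turned for E2f8 from stage 1 to 12 (-0.17), E2f1 in differentiating spermatogonia (-0.23), and E2f1 (0.73), E2f2 (-1.12), E2f5 (-0.26), Rb1 (-0.24) and Rbl1 (-0.28) in preleptotene cells. Without single mice the change ranged from -0.87 to 0.20 for E2f2 from stage 1 to 12, and in preleptotene cells from -0.021 to 0.26 for E2f5 and -0.40 to 0.028 for E2f7. E2f1 in differentiating spermatogonia was -0.23 in sums of at least 20 cells, E2f5 -0.11 on reads, E2f7 0.00601 at resolution 0.7 and Rbl1 -0.074 thinned (these 3 in preleptotene cells), and E2f6 0.081 in pachytene cells without the gate-sorted library. The causes were not tested. Of the other values for single members 1080 kept direction and side of the threshold, 161 lost and 30 gained a call. RLE factors split the genes called from stage 1 to 12 into 3584 higher and 4675 lower, against 4044 and 4139, with a median of -0.26.

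Thinning left E2f8 untested and E2f7 untested between stages, only mice 2 and 3 gave stages without alignment and none was leptotene and zygotene-like, and sums of at least 20 cells kept stage 1 from mouse 3 alone and stage 6 from mouse 2 alone, each assumed to vary like the other sums. Depth limits E2f2, E2f3, E2f6, E2f7 and E2f8 after stage 4, where many sums hold fewer than 10 UMIs.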
